A study of Saccharomyces cerevisiae with 2 samples.

Results

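Of the 252 tRNA genes listed for S phase cells of budding yeast, 239 of them nuclear, 10 were nuclear leucine genes with the anticodon UAA or UAG. They were taken by name from the table that sets the strains side by side, and mitochondrial genes were left out. The 7 tL(UAA) genes have no intron and the 3 tL(UAG) genes have one. All 10 had a value in both strains.

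The measurement was small RNA sequencing of 1 cdk1-as1 library and 1 WT library. The cdk1-as1 strain carries a Cdk1 in which glycine replaces phenylalanine 88, which lowers the activity of this cell cycle kinase, and the other strain is labelled wild type. Both were held in G1 with alpha factor at 15 mg/L for 3 h, released into rich medium with or without nocodazole, and collected when microscopy showed S phase. The labels name no Cdk1 inhibitor for either sample, call the material total RNA from one kit, and do not say which of the release media was used, whereas the study's methods describe small RNA from another kit. In such bulk samples a different share of S phase cells and a different amount of RNA per cell cannot be told apart.

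RNA polymerase III transcribes tRNA genes from promoters inside the gene, where TFIIIC binds the A and B boxes and places TFIIIB upstream of the start. The precursor loses its leader to RNase P, is trimmed at its end, receives CCA and, where there is an intron, is spliced. Leucine tRNAs have a long variable arm. By Watson-Crick pairing tL(UAA) matches the codon UUA and tL(UAG) the codon CUA, and codons read by other pairing are not counted here. In 6008 annotated nuclear coding sequences UUA made up 26.4 and CUA 13.5 of every 1000 codons.

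The 7 tL(UAA) genes share 1 sequence of 84 nt from the first to the last base, so no read inside the gene can be assigned to 1 of them. It is shown with the anticodon in capitals. The 3 tL(UAG) genes are 101 nt long and share 1 exon sequence of 82 nt. Their 19 nt intron, in capitals below the tL(UAA) sequence, follows the anticodon by 1 base. tL(UAG)J and tL(UAG)L2 are identical, and tL(UAG)L1 differs from them by A42G, counted from 1 at the first base of the gene, where tL(UAG)J has the A and tL(UAG)L1 the G. This base lies in the intron, so the mature RNAs of the 3 genes have the same sequence. The sequences were read from the RefSeq copy of the sacCer3 genome.
tL(UAA)B1: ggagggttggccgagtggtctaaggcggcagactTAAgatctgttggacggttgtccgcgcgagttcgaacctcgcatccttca
tL(UAG)J: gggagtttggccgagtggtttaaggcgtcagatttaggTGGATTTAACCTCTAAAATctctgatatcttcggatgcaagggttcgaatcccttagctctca
tL(UAG)L1: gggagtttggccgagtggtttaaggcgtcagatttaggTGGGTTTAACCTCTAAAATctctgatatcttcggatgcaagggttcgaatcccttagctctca

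In sacCer3 the tL(UAA) genes lie dispersed over 6 chromosomes. On the plus strand are tL(UAA)B1 at chrII:9583-9666, tL(UAA)B2 at chrII:347603-347686, tL(UAA)D at chrIV:519743-519826 and tL(UAA)K at chrXI:84208-84291. On the minus strand are tL(UAA)J, the suppressor locus SUP51, at chrX:424432-424515, tL(UAA)L at chrXII:962972-963055 and tL(UAA)N at chrXIV:726134-726217. Of the tL(UAG) genes, tL(UAG)J at chrX:617919-618019 and tL(UAG)L2 at chrXII:732090-732190 are on the plus strand and tL(UAG)L1 at chrXII:592519-592619 is on the minus strand. The introns run over chrX:617957-617975, chrXII:732128-732146 and chrXII:592563-592581.

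The members have much in common outside their anticodons. TGGCNNAG, a form of the start of the A box, was found on either strand in 10 of 10 members and in 36.8% of the 239 nuclear tRNA genes. GTTCGANNC, a form of the B box, was found in 10 of 10 members and in 76.6% of these genes. A run of TTTT, the kind of signal at which RNA polymerase III stops, was present within 30 nt downstream on the coding strand in 10 of 10 members and in 98.3% of nuclear genes. The runs were 6 to 11 T long and began after 3 to 8 nt. A long terminal repeat of a Ty element lay within 200 nt of 7 members and of 49.0% of nuclear genes. The nearest one was 16 nt from tL(UAA)N, whereas none lay nearer than 74148 nt to tL(UAG)J. The open reading frame YLR302C lay at a distance of 0 nt from tL(UAG)L2, a value given both to features that touch and to features that overlap. The nearest coding genes of the other 9 members lay 192 to 1827 nt away.

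The mature tL(UAA) and tL(UAG) sequences were identical at 56 of 84 aligned positions (66.7%). tL(UAG) was closer to tL(CAA), with 78.0% identity, and to the single tL(GAG) gene, with 75.6%. The study's Northern blot probe for leucine tRNA, shown because its name could be taken to cover all members, paired at all 22 bases with tL(CAA). Its best match without gaps had 5 mismatches to tL(UAG), which are in capitals, and 7 to tL(UAA).
Northern probe for leucine tRNA: gGTTgctaagAgattcgaacTc

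The 10 genes carried only 4 distinct pairs of values, and these followed the anticodon and the strand on which the gene is annotated. The values are FPKM, fragments per kilobase of gene on a scale set for each library, as the authors deposited them. The authors report spike-in normalization, and its part in these values was not checked. Each of the 4 tL(UAA) genes on the plus strand had 53305 FPKM in cdk1-as1 and 47659 FPKM in WT. Each of the 3 tL(UAA) genes on the minus strand had 99024 FPKM in cdk1-as1 and 308655 FPKM in WT. Thus genes with the same 84 bases were slightly higher in cdk1-as1 on one strand and far lower on the other.

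The tL(UAG) genes were lower in cdk1-as1 on both strands. tL(UAG)J and tL(UAG)L2, on the plus strand, had 9429 FPKM in cdk1-as1 and 89943 FPKM in WT. tL(UAG)L1, on the minus strand, had 35600.2 FPKM in cdk1-as1 and 73817 FPKM in WT. In WT the values of the 3 genes lay close together, and in cdk1-as1 they lay apart.

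**Figure D1:**
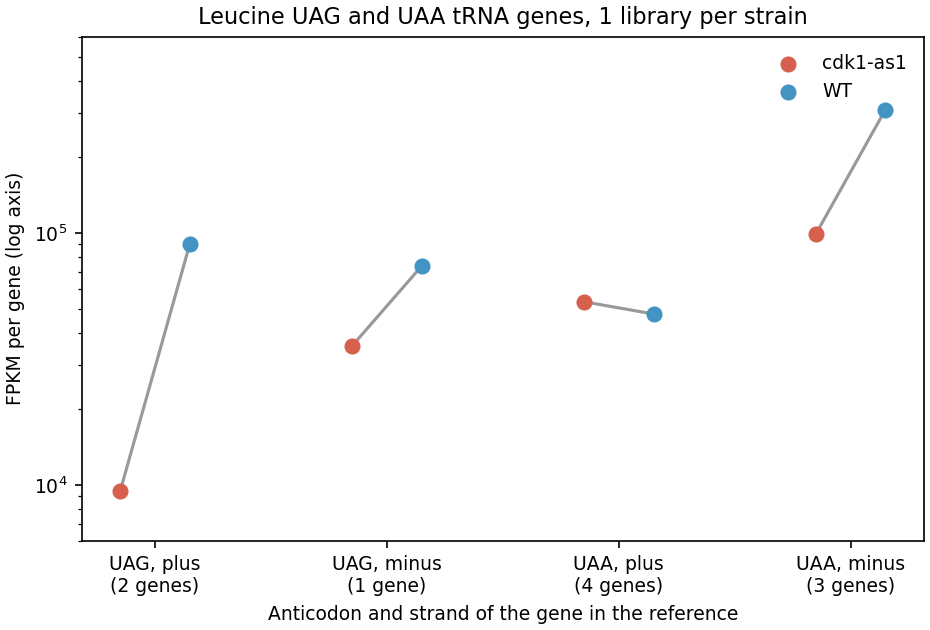
FPKM per gene on a log axis for the 4 distinct member values, by anticodon and strand, with cdk1-as1 as the left point and WT as the right point of each pair (1 library per strain, so there are no error bars). The plus strand tL(UAA) genes lie at 53305 in cdk1-as1 and 47659 in WT, while the other 3 values are lower in cdk1-as1.

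As log2 ratios of FPKM, cdk1-as1 over WT with no pseudocount, the members lay at −3.25 for tL(UAG)J and tL(UAG)L2, −1.64 for the minus strand tL(UAA) genes, −1.05 for tL(UAG)L1 and 0.16 for the plus strand tL(UAA) genes. In percent of WT the same values were 10.5%, 32.1%, 48.2% and 112%. The difference between the strains has no replicate check, and no test was made. Lower values were found for 3 of 3 tL(UAG) and 3 of 7 tL(UAA) genes, against 91.1% of the 191 nuclear tRNA genes measured in both strains. The same 6 members were at least 2-fold lower, against 67.0% of nuclear genes. The 4 tL(UAA) genes that were higher stand against 8.90%, or 17 of the 191 genes, which include them. These 4 share a single value, so they are 1 measurement and not 4. The 191 genes are counted by copy as well and carry 68 distinct pairs of values.

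The median log2 ratio was −3.25 for the tL(UAG) genes and 0.16 for the tL(UAA) genes, against −1.48 for all 191 nuclear genes. Both medians rest on the plus strand copies, which are the majority in either group. With each distinct value counted once the medians were −2.15 for tL(UAG) and −0.74 for tL(UAA), so the sign for tL(UAA) changed.

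**Figure D2:**
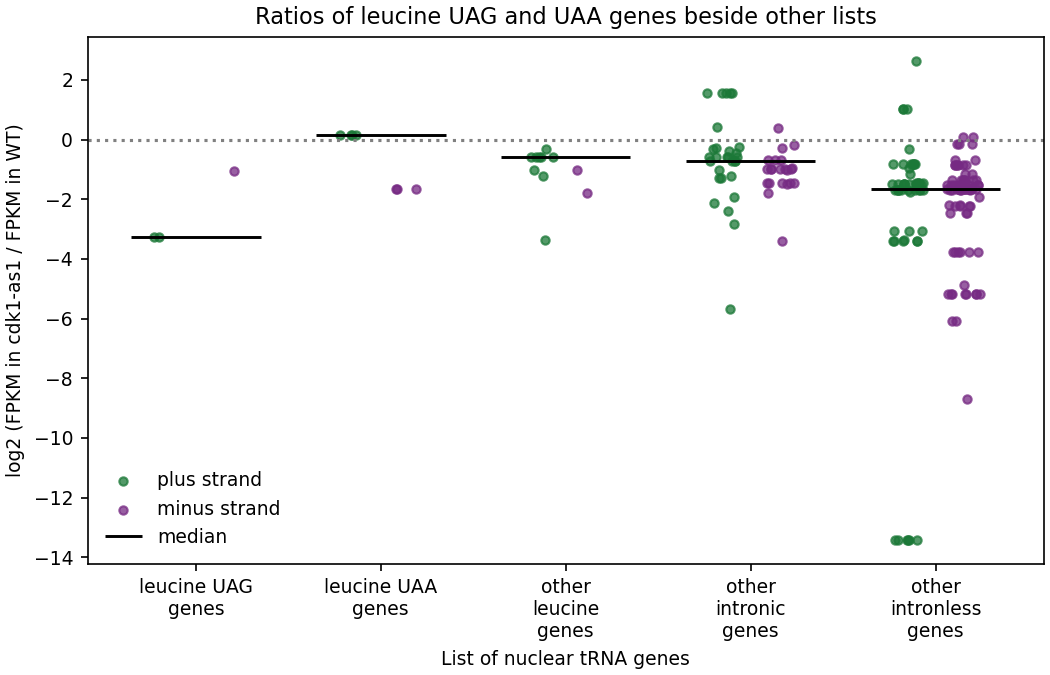
Log2 ratio of FPKM, cdk1-as1 over WT, for each nuclear tRNA gene with both values, by list, with genes of the plus strand on the left and of the minus strand on the right of each column and the list median as a line. The tL(UAA) genes sit at 0.16 on the plus strand and −1.64 on the minus strand, and the tL(UAG) genes at −3.25 and −1.05.

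The estimated counts behind these values were small. Intervals here are exact 95% Poisson intervals of rounded counts, or exact binomial (Clopper-Pearson) intervals for ratios, and cover counting error only, because sequenced copies of a fragment are not independent molecules. tL(UAG)J and tL(UAG)L2 each had 3.88 counts in cdk1-as1 (1.09 to 10.2) and 33.1 counts in WT (22.7 to 46.3). tL(UAG)L1 had 18.7 counts in cdk1-as1 (11.4 to 29.7) and 26.2 counts in WT (17.0 to 38.1), so its intervals overlapped. Each plus strand tL(UAA) gene had 22.2 counts in cdk1-as1 (13.8 to 33.3) and 14.6 counts in WT (8.40 to 24.7), which overlapped as well. Each minus strand tL(UAA) gene had 35.7 counts in cdk1-as1 (25.2 to 49.8) and 101 counts in WT (82.3 to 123). Only tL(UAG)J with its copy and the minus strand tL(UAA) genes thus had counts per gene apart by more than their intervals.

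**Figure D3:**
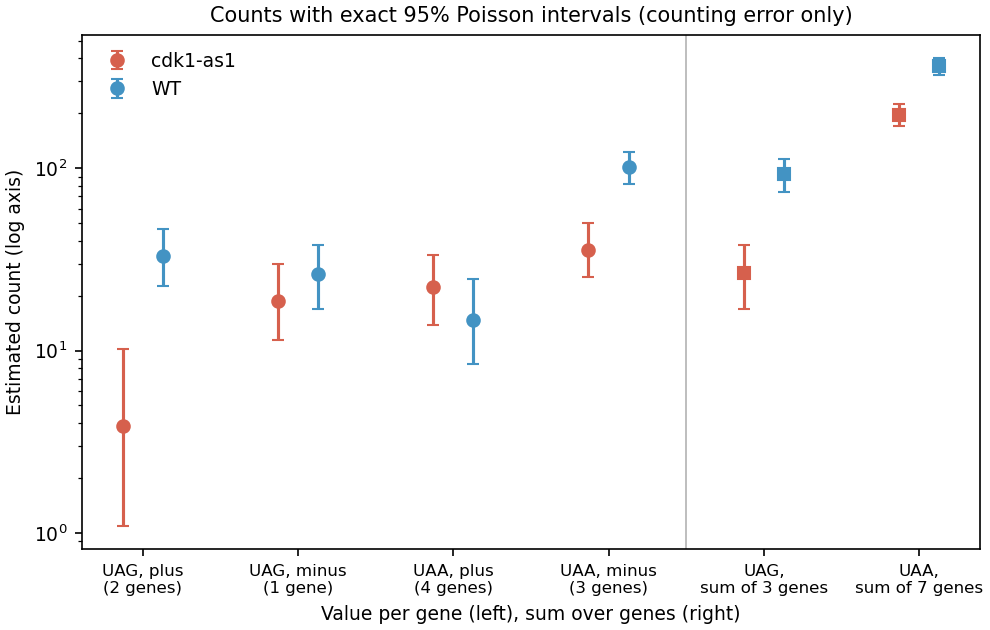
Estimated counts on a log axis with exact 95% Poisson intervals (counting error only), cdk1-as1 left of WT, per gene for the 4 distinct values and summed over the genes of each anticodon. The sums are 26.4 in cdk1-as1 and 92.5 in WT for tL(UAG), and 196 in cdk1-as1 and 362 in WT for tL(UAA).

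The log2 ratio of the counts was −3.10 for tL(UAG)J and its copy (interval −5.00 to −1.55) and −1.50 for the minus strand tL(UAA) genes (−2.08 to −0.93). For tL(UAG)L1 it was −0.49 (−1.39 to 0.46) and for the plus strand tL(UAA) genes 0.60 (−0.46 to 1.60), and both intervals per gene included 0. Summed over the 4 plus strand tL(UAA) genes, with 88.8 counts in cdk1-as1 and 58.6 counts in WT, the interval was 0.10 to 1.09 and did not include 0. That sum takes a single shared value 4 times. How reads of identical copies were assigned is not known, so the summed interval may be too narrow. Counts and FPKM were not in one proportion in the libraries. The total that a member's count, FPKM and length imply was 4070 to 5200.1 counts in cdk1-as1 and 3518 to 3904 counts in WT. tL(UAG)L1 accordingly stood at −1.05 in FPKM and at −0.49 in counts on the log2 scale. In counts as in FPKM 6 of 10 members were lower in cdk1-as1, against 82.7% of the 191 nuclear genes.

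Few counts fell on tRNA genes in either library. They do not measure sequencing depth, since the study's methods give far more clean reads per sample. Counts over all listed tRNA genes came to 1569.7 in cdk1-as1 and 2952 in WT. The tL(UAA) genes held 12.5% of them in cdk1-as1 (exact binomial interval 10.9% to 14.2%) and 12.3% in WT (11.1% to 13.5%), so their share differed by less than the counting error. The tL(UAG) genes held 1.66% in cdk1-as1 (1.08% to 2.42%) and 3.12% in WT (2.52% to 3.81%). The tL(UAG) intervals did not overlap.

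Because copies cannot be separated, sums over genes with the same mature sequence are less dependent on how reads were spread over them. The sources used here do not say how reads of identical copies were assigned, and if a read was counted for several copies the sums and their intervals count it more than once. Over the 7 tL(UAA) genes the sum was 510290 FPKM in cdk1-as1 and 1116599 FPKM in WT, which is 45.7% and a log2 ratio of −1.13. Over the 3 tL(UAG) genes it was 54458 FPKM in cdk1-as1 and 253704 FPKM in WT, which is 21.5% and a log2 ratio of −2.22. On the deposited scale both RNAs were therefore lower in cdk1-as1 when summed, also for tL(UAA), whose majority of genes was higher. With the FPKM totals of the libraries set equal, summed tL(UAA) was at 0.14 and no longer lower.

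Summed counts gave a log2 ratio of −0.89 for tL(UAA) (interval −1.14 to −0.63) and −1.81 for tL(UAG) (−2.51 to −1.18). Of the 36 mature nuclear tRNA sequences measured in both strains, the summed FPKM of 34 was lower in cdk1-as1, with a median log2 ratio of −1.41. Counted from the lowest ratio, tL(UAG) had rank 8 and tL(UAA) rank 24. Among the 26 sequences with at least 10 counts in one library, tL(UAG) had rank 3 and tL(UAA) rank 16. By counts, tL(UAA) had rank 2 from the top in both libraries and tL(UAG) rank 13 in both.

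tL(UAG) was lower relative to tL(UAA) only in the sum and on the plus strand. In summed counts the log2 ratio of tL(UAG) minus that of tL(UAA) was −0.94 (exact conditional interval of the odds ratio −1.67 to −0.24). On the plus strand, with 1 gene of each, this difference was −3.60 (−5.77 to −1.68). On the minus strand, with 1 gene of each, it was 1.04 (−0.08 to 2.13), so that tL(UAG)L1 stood higher relative to WT than the tL(UAA) genes there, with an interval that includes 0. With the 3 minus strand tL(UAA) genes summed it was 1.05 (0.06 to 2.03), which leaves 0 just outside, so the call depends on whether identical copies count as 1 measurement or as several. In FPKM the differences were −3.42 on the plus strand and 0.59 on the minus strand.

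The FPKM values of the RNAs within a library can be compared per length. The study warns that modifications of mature tRNA may hinder sequencing, which likely favours new, unmodified tRNA in these data. The ratios below therefore compare sequenced fragments and may differ from the abundance of the RNAs. Summed tL(UAA) FPKM was 9.37 times that of tL(UAG) in cdk1-as1 and 4.40 times in WT, whereas the ratio of gene numbers is 2.33. In counts the ratio was 7.41 in cdk1-as1 (4.99 to 11.8) and 3.92 in WT (3.12 to 5.00), and the intervals overlapped at their ends. Per gene, the mean tL(UAA) FPKM was 4.02 times the tL(UAG) mean in cdk1-as1 and 1.89 times in WT. The gene length used for FPKM includes the intron, which a mature tRNA lacks, and with exon length the summed ratios were 7.61 in cdk1-as1 and 3.57 in WT.

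The order of levels per gene differed between the libraries. In cdk1-as1 the minus strand tL(UAA) genes came first, followed by the plus strand tL(UAA) genes, tL(UAG)L1 and the plus strand tL(UAG) genes. In WT the minus strand tL(UAA) genes also came first, but both tL(UAG) values lay above the plus strand tL(UAA) genes. Judged by the Poisson intervals of their counts, neighbours below the first place in WT overlapped, as did all neighbours but the last pair in cdk1-as1, where tL(UAG)L1 lay above tL(UAG)J and its copy. In WT the minus strand tL(UAA) value was 6.48 times the plus strand value, and in cdk1-as1 it was 1.86 times.

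The split by strand was not particular to the leucine genes. Of the nuclear tRNA genes, 215 fell into 32 sets with the same whole gene sequence, and values were taken as equal when they matched to 6 decimals. In 23 sets with copies on both strands, the values of the strands differed in 23. In 31 of the 32 sets all copies on one strand had 1 value. Among the 18 sets with copies on both strands and with all 4 values, the signs of the log2 ratios of the strands were opposite in 3, of which the tL(UAA) genes are 1. The absolute log2 difference between the strands had a median of 2.54 in WT over 22 sets. For tL(UAA) the log2 ratio of the plus to the minus strand value was −0.89 in cdk1-as1 and −2.70 in WT. Higher values in cdk1-as1 were found for 14 of 88 genes on the plus strand and 3 of 103 on the minus strand. These numbers count identical copies separately. The 88 genes carry 33 distinct pairs of values and the 103 genes 35. Of the 14, 4 are the tL(UAA) genes and 5 share another value, with 0.20 counts in cdk1-as1 and 0.05 counts in WT per gene. The sources used here do not say how strand entered the counting, and its part in the member values was not tested.

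**Figure D4:**
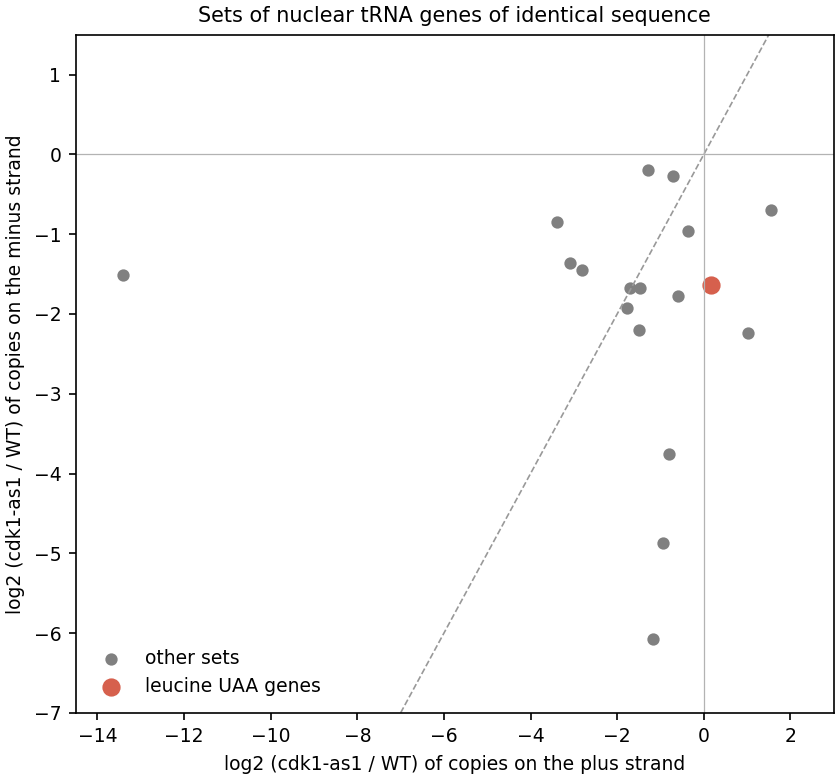
Log2 ratios of FPKM, cdk1-as1 over WT, of the plus strand copies (horizontal) against those of the minus strand copies (vertical) for 18 sets of nuclear tRNA genes with the same sequence, with a dashed line where both would be equal. The tL(UAA) genes lie at 0.16 and −1.64, in the quadrant where the strands have opposite signs, with 2 other sets.

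Other leucine genes were all lower in cdk1-as1. The 11 with both values are tL(CAA), with the tL(CCA) genes of the same exon sequence, and tL(GAG). Of them 11 were lower, against 91.1% of nuclear genes, and 5 at least 2-fold lower, against 67.0%. Their median log2 ratio was −0.59. It is the shared value of 5 plus strand copies with 0.71 counts in cdk1-as1 and 2.28 counts in WT per gene. In counts the median was −1.69. With the FPKM totals of the libraries set equal, 2 of the 11 were lower, against 63.4% of nuclear genes, with a median of 0.68. Summed over its 10 genes, tL(CAA) stood at 39.0% of WT, a log2 ratio of −1.36, between tL(UAA) and tL(UAG). The single tL(GAG)G gene, at chrVII:700675-700756, had 5492 FPKM in cdk1-as1 and 56603 FPKM in WT, a log2 ratio of −3.37. It rests on 1.20 counts in cdk1-as1 and 2.19 counts in WT, a count ratio of −0.86 on the log2 scale, so the FPKM ratio has few counts behind it.

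The members were set beside lists of like structure. Of 51 other intronic genes, 44 were lower, 18 at least 2-fold lower and 7 higher, with a median log2 ratio of −0.72, against −3.25 for the intronic tL(UAG) genes. Of 130 other intronless genes, 124 were lower, 104 at least 2-fold lower and 6 higher, with a median of −1.67, against 0.16 for the intronless tL(UAA) genes. The tL(UAG) median thus lay below that of the other intronic genes, and the tL(UAA) median above that of the other intronless genes. Both member medians are the repeated value of the plus strand copies. On the minus strand the tL(UAA) genes stood at −1.64 in FPKM, close to the median of the other intronless genes, and tL(UAG)L1 at −1.05. In counts these tL(UAA) genes stood at −1.50 and the median of the other intronless genes at −2.31. The comparison medians count identical copies separately as well. The 130 intronless genes carry 34 distinct pairs of values and the 51 intronic genes 30. Of 46 other genes with uridine at the wobble position of the anticodon, the position that both members share, 35 were lower, 23 at least 2-fold lower and 11 higher, with a median of −0.99.

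Genes whose ratio lay nearest to each member value were sought among 28 other distinct nuclear values with at least 10 counts in one library. Likeness here is the distance between single log2 ratios, 1 per gene. Nearest to the plus strand tL(UAA) genes were the phenylalanine genes tF(GAA)D at 0.40 and tF(GAA)B at −0.24. Nearest to the minus strand tL(UAA) genes were the aspartate gene tD(GUC)B with its plus strand copies at −1.70 and the serine gene tS(UGA)I at −1.76. Nearest to tL(UAG)L1 were the leucine genes tL(CAA)A at −1.02 and tL(CCA)D at −1.01. For tL(UAG)J and its copy the nearest of these values, the alanine gene tA(UGC)E at −2.48 and the serine gene tS(CGA)C at −2.39, lay 0.78 and 0.87 away. The ratio of tL(UAG)J rests on 3.88 counts in cdk1-as1, and its count ratio has an interval of −5.00 to −1.55. These distances are thus small beside the counting error. The count minimum also left out tL(GAG)G, at −3.37. Of the 28 values, the lowest was that of tA(UGC)E.

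The directions of 1 member, tL(UAG)L1, and of summed tL(UAA) depend on the scale shared by the libraries. The authors normalized with spike-in RNA, and the sum of FPKM over listed genes was lower in cdk1-as1. Setting these sums equal adds 1.27 to every log2 ratio. The ratio was then −1.98 for tL(UAG)J and its copy, −0.37 for the minus strand tL(UAA) genes, 0.22 for tL(UAG)L1 and 1.43 for the plus strand tL(UAA) genes. Under this scaling 5 of the 10 members were lower, against 63.4% of nuclear genes. Summed tL(UAA) was at 0.14, its sign turned, and summed tL(UAG) at −0.95. With equal totals of counts, summed tL(UAA) was at 0.02 (interval −0.23 to 0.28). The other 9 members kept their sign, while a shift common to all genes leaves their order as it was.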

How the data were processed

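Small RNA of S phase cells from 1 cdk1-as1 and 1 WT library was sequenced by the authors as paired reads, with spike-in normalization and the Ensembl R64 annotation. The processing notes name sacCer3. The aligner, the counting program and its use of strand were not given in the sources used here. Per library the authors deposited an estimated count, which need not be whole, and an FPKM value per tRNA gene. The side-by-side table deposited by the authors gives the same values as RPKM (equal within 1e-05 for 251 of 251 genes), 0.1 for absent genes, and fold changes, FDR and log10 columns, which were not used. Precision is limited by 1569.7 counts in cdk1-as1 and 2952 counts in WT.

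By position, the listed genes were assigned to RefSeq genes of the same build (252 of 252 found, lengths equal). Ratios used genes above 0.1 FPKM in both libraries. Identity came from global alignments (match 1, mismatch −1, gap opening −2, extension −1). The interval and median calculations were tested on simulated data. With 1 library per strain there is no test. Python 3.11.15, scipy 1.17.1, pandas 2.3.3 and Biopython 1.88 were used.

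The members, lists and rules were chosen with earlier results of these data known. Named genes are all members, tL(GAG)G and, for each distinct member value, the 2 other nuclear tRNA genes of nearest log2 ratio with at least 10 counts in one library, 1 per set of identical values. Alternatives were pseudocounts of 1 and 1000, the count minimum, identical values counted as 1, equal totals, counts in place of FPKM and, for the ratio of levels, exon length. Single strands and sums over copies were added after the data were seen.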

Additional observations from a re-analysis of the deposited data

How the results depend on the processing

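Pseudocounts of 1 or 1000, a minimum of 10 counts and counts in place of FPKM turned no direction. The median log2 ratio of tL(UAA) turned negative with identical values counted as 1 (−0.74), on the minus strand alone (−1.64), and summed over copies in FPKM (−1.13) or counts (−0.89). With identical values counted as 1, 1 tL(UAA) value was lower, and the ratio of summed tL(UAA) to tL(UAG) FPKM was 3.38 in cdk1-as1 and 2.18 in WT. The tL(UAG) median was −1.05 on the minus strand alone. With equal totals the plus strand tL(UAA) genes, and the tL(UAA) median, were at 1.43 in FPKM and 1.51 in counts, the minus strand tL(UAA) genes at −0.37 and −0.59, and tL(UAG)L1 at 0.22 and 0.42, its sign turned. The sign of summed tL(UAA) turned too, to 0.14 in FPKM and 0.02 in counts. The strand and sum alternatives were chosen after seeing the data. That identical values share a strand is why single strands and equal-value counting move the medians; the cause of the strand difference was not tested. The equal totals shift every ratio by construction.

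No paired analysis was possible because each strain has 1 library. Low counts limit tL(UAG)J most, with 3.88 counts in cdk1-as1, and the counting intervals say nothing of the spread between cultures.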
